A study of Homo sapiens with 6 samples.

Results

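The ligands and receptors of the tumour necrosis factor (TNF) superfamily were followed in SU-DHL-8, a human B-lymphoma line (diffuse large B-cell type) whose label gives lymph node as tissue and DNMT1 as wild type. Members were the genes whose symbol is TNFSF or TNFRSF with a number and optional letter, together with TNF, LTA, LTB, LTBR, FAS, FASLG, CD40, CD40LG, CD27 and CD70. The rule found 37 of 35974 genes in the deposited table, 13 ligands and 24 receptors. Cells were treated with GSK3685032, which blocks the maintenance DNA methyltransferase DNMT1 (3 libraries), or with its solvent DMSO (3 libraries). The sources used here give neither dose nor duration. Inhibitor replicate 2 carries the treatment label GSK3685033 and replicate 3 the label GSK3685034, while the series design names GSK3685032 alone, so the 3 were kept as 1 group and replicate 1 was also tested alone. Separate cultures are not stated for any group, so each p-value reflects just the scatter among these 6 libraries, and that scatter may be technical.

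TNF superfamily ligands are mostly membrane proteins that act as trimers and cluster their receptors on a neighbouring or the same cell. Receptors with a death domain recruit FADD or TRADD and can start caspases, while the others bind TRAF proteins and feed the canonical and non-canonical NF-kappaB pathways. In B cells the family carries survival signals (BAFF and APRIL), T-cell help (CD40) and costimulation (CD27, CD70 and the ligand of TNFRSF9).

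Total estimated counts were 53846028 to 56795603 per library with the inhibitor and 57451935 to 75304441 with DMSO, and a count of 4 was about 1 read pair. All 7 B-cell markers examined reached an FPKM of 1 (fragment level scaled to gene length and library size), with summed levels of 804 to 870 FPKM with the inhibitor and 873 to 891 FPKM with DMSO. Summed levels of 5 T-cell markers were 5.31 to 7.36 FPKM with the inhibitor and 2.05 to 2.86 FPKM with DMSO, nearly all of it TRAC. Markers of NK cells (5), monocytes (6), stroma (5) and endothelium (3) each stayed under 1 FPKM in every library. Their sums ranged from 0.499 to 0.694, 0.793 to 1.08, 0.538 to 0.669 and 0.0367 to 0.0609 FPKM with the inhibitor, against 0.057 to 0.176, 0.587 to 0.823, 0.0988 to 0.132 and 0 FPKM with DMSO. Of the tested markers, 3 of 3 for T cells, 1 of 2 for NK cells, 0 of 3 for monocytes and 2 of 3 for stroma were called higher. Of all tested genes, 38.1% were. The calls include 1 for T cells, 1 for NK cells and 1 for stroma with 0 counts in every DMSO library. These passed the count filter only through the inhibitor libraries, which fixed their direction. The part of these markers of other cells in the results on the members was not tested.

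Of the 37 members, 29 had enough counts to be tested, of which 16 rose, 6 fell and 7 were not called with the inhibitor (edgeR's quasi-likelihood test, Benjamini-Hochberg adjustment over 20783 genes, adjusted p of 0.05, two-sided). The shares over the whole table were 38.1% higher and 27.3% lower, or 65.4% in either direction. With replicate 1 alone as the inhibitor group 12 members rose and 4 fell, and those no longer called were LTB, LTBR, TNFRSF12A, TNFSF4, TNFRSF10B and TNFSF13. Among the 16 higher members, 4 had 0 counts in every DMSO library (TNFRSF10D, TNFRSF4, TNFRSF18 and LTBR). They passed the filter only through their inhibitor counts, so their direction was fixed by the filter. All 1809 tested genes with 0 DMSO counts were called higher. The adjusted p-values given below for these 4 members therefore add no support for a rise. Of the 25 members with counts in both groups, 12 were higher, and 32.2% of tested genes with DMSO counts were. FPKM values did not overlap between the groups in 17 members that lay higher and 7 that lay lower, where 41.7% and 30.0% of all tested genes did so (71.7% in either direction). The median log2 change was 0.66 over those 25 members, 0.75 over all 29 with the 4 genes at their lower bound, and 0.04 and 0.14 over all genes taken the same 2 ways. Ligands and receptors both held calls, with 4 higher and 1 lower of 10 tested ligands and 12 higher and 5 lower of 19 tested receptors. In bulk RNA, fewer cells that express a gene and less of its RNA per cell cannot be told apart.

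**Figure D1:**
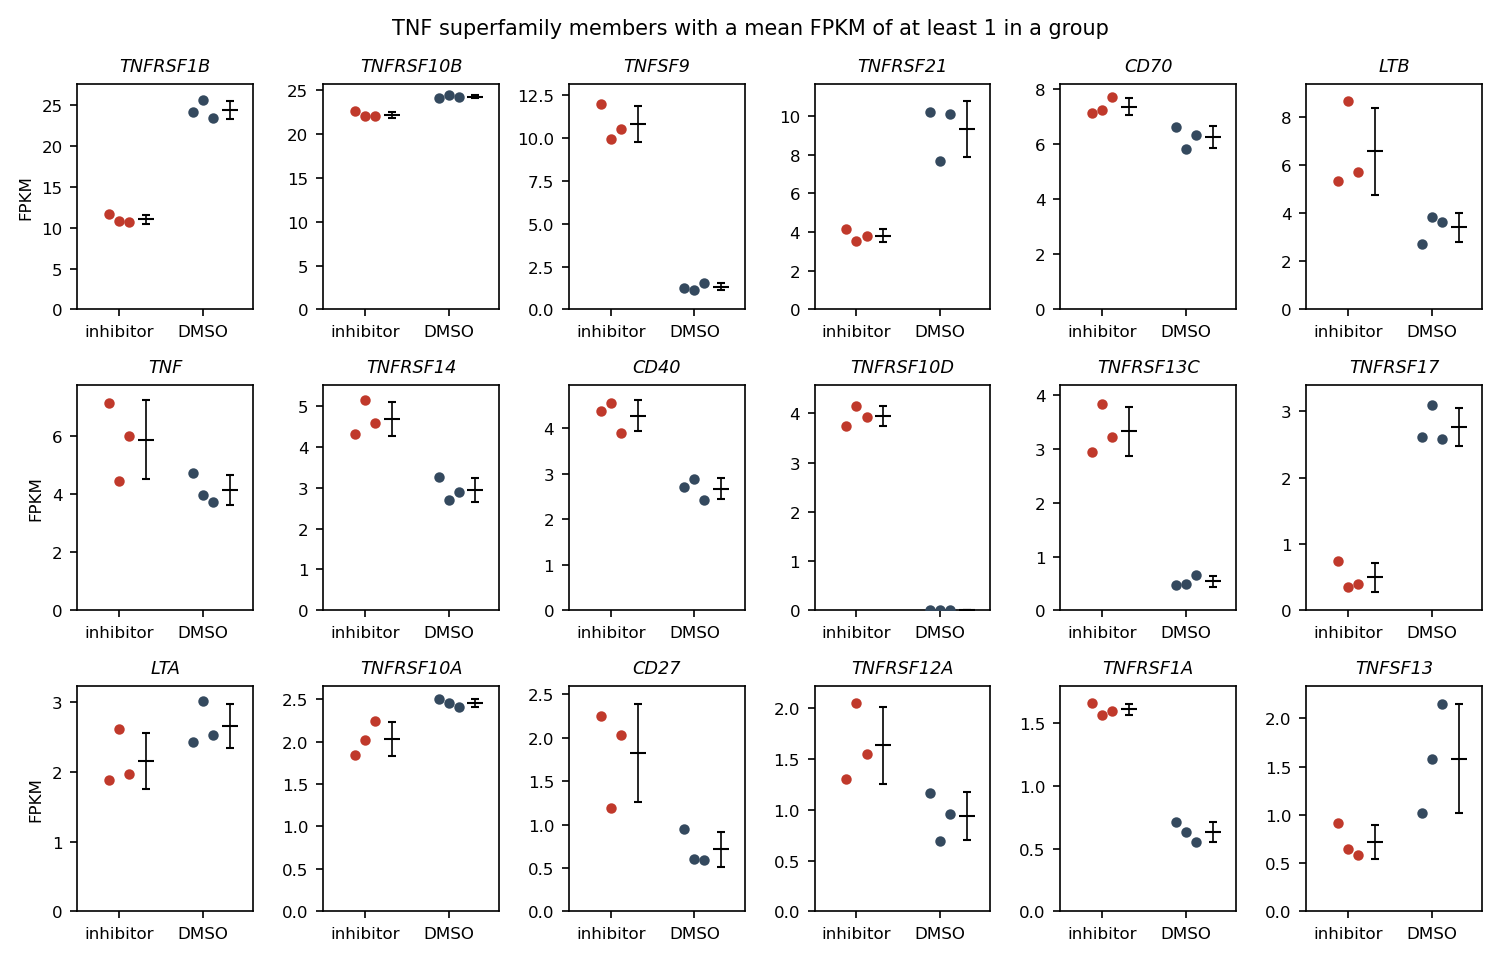
FPKM of the 18 members whose mean reached 1 FPKM in a group, each dot 1 library and each bar the mean ± SD (n = 3), inhibitor left and DMSO right, on linear axes from 0. TNFRSF1B had 10.7 to 11.7 FPKM with the inhibitor against 23.4 to 25.6 FPKM with DMSO, while TNFSF9 had 9.92 to 12 against 1.16 to 1.56 FPKM.

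The 2 TNF receptors moved in opposite directions. TNFRSF1B (ENSG00000028137, GRCh38 chromosome 1, 12166991 to 12209228), the receptor without a death domain and one of the most expressed members, had 11.7, 10.8 and 10.7 FPKM in inhibitor libraries 1, 2 and 3, against 24.2, 25.6 and 23.4 FPKM in DMSO libraries 1, 2 and 3. The groups were far apart, and its log2 change was -1.15 (SE 0.0609, edgeR adjusted p = 2.6e-07). TNFRSF1A (ENSG00000067182, chromosome 12, 6328757 to 6342114), the death-domain receptor that most tissues express, had 1.66, 1.57 and 1.6 FPKM with the inhibitor, against 0.71, 0.63 and 0.551 FPKM with DMSO. It rose by 1.34 on the log2 scale (SE 0.169, edgeR adjusted p = 7.76e-05). The FPKM ratio of TNFRSF1A to TNFRSF1B was 0.146 ± 0.00332 with the inhibitor and 0.0258 ± 0.00311 with DMSO (SD, n = 3 each; two-sided exact permutation p = 0.1, the lowest value 3 against 3 can give). That p-value follows from the opposite, non-overlapping changes of the 2 receptors and adds no support. TNFRSF1B stayed the higher of the pair in all 6 libraries. The 300-base windows around the RefSeq starts of both genes (250 bases before and 50 after the start, build GRCh38.p14) are shown because the receptors changed oppositely and DNMT1 methylates CpG sites. Capitals mark each CG, the methylatable dinucleotide. The TNFRSF1B window is chr1:12166741-12167040 on the plus strand, and that of TNFRSF1A is chr12:6342027-6342326 on the minus strand.
TNFRSF1B: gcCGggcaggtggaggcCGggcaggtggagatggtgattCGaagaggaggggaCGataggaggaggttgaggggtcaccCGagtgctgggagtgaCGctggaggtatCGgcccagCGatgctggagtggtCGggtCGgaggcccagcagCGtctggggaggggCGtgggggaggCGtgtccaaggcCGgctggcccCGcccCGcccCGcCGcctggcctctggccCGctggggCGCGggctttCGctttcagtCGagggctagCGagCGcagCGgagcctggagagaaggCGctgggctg
TNFRSF1A: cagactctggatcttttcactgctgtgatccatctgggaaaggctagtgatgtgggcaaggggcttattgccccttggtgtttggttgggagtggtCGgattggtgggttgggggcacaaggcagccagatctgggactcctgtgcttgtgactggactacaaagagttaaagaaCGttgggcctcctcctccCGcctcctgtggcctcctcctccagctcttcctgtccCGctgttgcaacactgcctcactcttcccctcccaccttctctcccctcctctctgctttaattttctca
The window of TNFRSF1B, which fell, holds 27 CG, and that of TNFRSF1A, which rose, holds 4.

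The ligand genes TNF, LTA and LTB lie side by side on chromosome 6 and did not move alike. TNF (ENSG00000232810, 31575565 to 31578336) had 7.16, 4.45 and 6.01 FPKM with the inhibitor, against 4.72, 3.99 and 3.75 FPKM with DMSO. The groups overlapped, since inhibitor library 2 lay below DMSO library 1. TNF was called higher only narrowly (log2 change 0.50, SE 0.191, edgeR adjusted p = 0.044). That call was lost without DMSO replicate 2 (adjusted p = 0.0964), DMSO replicate 3 (0.123), inhibitor replicate 1 (0.19) or inhibitor replicate 3 (0.102). LTB (ENSG00000227507, 31580525 to 31582522), which anchors lymphotoxin to the membrane, had 5.34, 8.63 and 5.7 FPKM with the inhibitor and 2.73, 3.85 and 3.64 FPKM with DMSO. The groups did not overlap, and LTB rose by 0.93 on the log2 scale (SE 0.213, edgeR adjusted p = 0.00341), with inhibitor library 2 the highest; with inhibitor replicate 1 alone it was not called (adjusted p = 0.0674). LTA (ENSG00000226979, 31572054 to 31574324), the secreted lymphotoxin, had 1.88, 2.62 and 1.97 FPKM with the inhibitor and 2.43, 3.02 and 2.53 FPKM with DMSO. The groups overlapped and it was not called (edgeR log2 change -0.31, SE 0.194, adjusted p = 0.194).

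LTBR, the receptor of membrane lymphotoxin and of TNFSF14, stayed near the detection limit. It had 19, 29 and 24 counts with the inhibitor and 0 counts in every DMSO library, at least 7.0-fold higher against a floor of 12 counts over the DMSO group (edgeR adjusted p = 0.00029). Its mean with the inhibitor was 0.0595 ± 0.0131 FPKM, and with counts divided by 4, as read pairs, it had too few to be tested. TNFRSF14 (HVEM, chromosome 1, 2555639 to 2563829), a receptor of TNFSF14 and LTA that also engages the inhibitory receptor BTLA, had 4.31, 5.13 and 4.58 FPKM with the inhibitor, against 3.25, 2.69 and 2.88 FPKM with DMSO. It rose by 0.66 on the log2 scale (SE 0.0909, edgeR adjusted p = 0.000137). The antisense gene TNFRSF14-AS1 overlaps it and rose by 0.68, and without knowledge of strand in the counting their reads cannot be told apart. TNFSF14 itself had 3 to 16 counts per library with the inhibitor and 0 to 8 with DMSO and was not tested.

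The TRAIL receptors form a cluster on chromosome 8 in which a decoy receptor appeared with the inhibitor while the death receptors changed little. TNFRSF10D (ENSG00000173530, 23135588 to 23164027), a decoy with a truncated death domain, had 3.75, 4.16 and 3.93 FPKM with the inhibitor (821, 906 and 812 counts), against 0 counts in every DMSO library. That is at least 247-fold higher against the floor of 12 counts (edgeR adjusted p = 8.05e-08). It was the only member that was under 0.1 FPKM in every DMSO library and at least 1 FPKM in every inhibitor library, a pattern met by 1.45% of all genes in the table (522 of 35974). TNFRSF10B (DR5, 23020133 to 23069031), which can induce apoptosis, had 22.6, 22.0 and 22.0 FPKM with the inhibitor, against 24.1, 24.4 and 24.2 FPKM with DMSO. It fell by 0.13 on the log2 scale (SE 0.0415, edgeR adjusted p = 0.018), a direction that turned to 0.04 (adjusted p = 0.408) under upper-quartile scaling. With a filter of at least 1 FPKM in at least 3 libraries it was -0.04 and not called (edgeR adjusted p = 0.442). The small change was also not called without inhibitor replicate 2 (adjusted p = 0.0526) or 3 (0.0536). TNFRSF10A (DR4, 23190452 to 23225102) had 1.84, 2.02 and 2.24 FPKM with the inhibitor and 2.5, 2.45 and 2.41 FPKM with DMSO. Its groups did not overlap, but it was not called (edgeR log2 change -0.28, SE 0.137, adjusted p = 0.1), although limma on log2(FPKM + 0.5) called it (-0.23, adjusted p = 0.0403). Per library, the FPKM of TNFRSF10D was 0.153, 0.173 and 0.162 of the summed FPKM of TNFRSF10A and TNFRSF10B with the inhibitor, and 0 with DMSO (two-sided exact permutation p = 0.1, the lowest possible). That p-value follows from the 0 DMSO counts of TNFRSF10D and adds no support.

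TNFSF10 (TRAIL), their ligand, had 0.414, 0.296 and 0.687 FPKM with the inhibitor and 0.752, 0.895 and 0.604 FPKM with DMSO. The groups overlapped and it was not called (edgeR log2 change -0.69, SE 0.317, adjusted p = 0.0809), but was without inhibitor replicate 3 (-1.06, adjusted p = 0.0176). TNFRSF11B, a soluble decoy for TRAIL and for the ligand of TNFRSF11A, had 4 counts in 1 inhibitor library and none elsewhere.

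Other death-domain receptors split by direction. TNFRSF21 (DR6, chromosome 6, 47231532 to 47309905) had 4.16, 3.51 and 3.77 FPKM with the inhibitor, against 10.2, 7.68 and 10.1 FPKM with DMSO. It fell by 1.29 on the log2 scale (SE 0.121, edgeR adjusted p = 9.88e-06). TNFRSF25 (DR3, chromosome 1, 6460786 to 6466175), the receptor of TNFSF15, had 1.1, 0.942 and 0.921 FPKM with the inhibitor and 0.631, 0.449 and 0.569 FPKM with DMSO. It rose by 0.83 on the log2 scale (SE 0.202, edgeR adjusted p = 0.00489). ESPN, on the opposite strand, overlaps TNFRSF25 and had 93, 83 and 157 counts with the inhibitor and 0 with DMSO, so shared reads cannot be told apart from a change of TNFRSF25.

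FAS (chromosome 10, 88953813 to 89029605), the death receptor that removes B cells in germinal centres, had 302, 257 and 321 counts with the inhibitor, against 994, 1316 and 1259 counts with DMSO. It fell by 1.79 on the log2 scale (SE 0.132, edgeR adjusted p = 1.98e-06), with no overlap between the groups. It is described although its level lay under 1 FPKM, a choice made after its values were seen, because that level is not a usual one. Counts and FPKM together imply a length of 32232 bases for the row, 12.6 times its longest GENCODE release 29 transcript, whereas this ratio had a value of 1.06 to 3.51 for the other 28 members with enough counts. The deposited gene starts at least 36985 bases upstream of every RefSeq start and overlaps STAMBPL1 on the same strand and ACTA2 on the other. STAMBPL1 fell by 1.03 (edgeR adjusted p = 3.03e-06) and ACTA2 by 2.24 (adjusted p = 1.49e-05) on the log2 scale, and how reads were shared among the 3 was not tested.

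**Figure D2:**
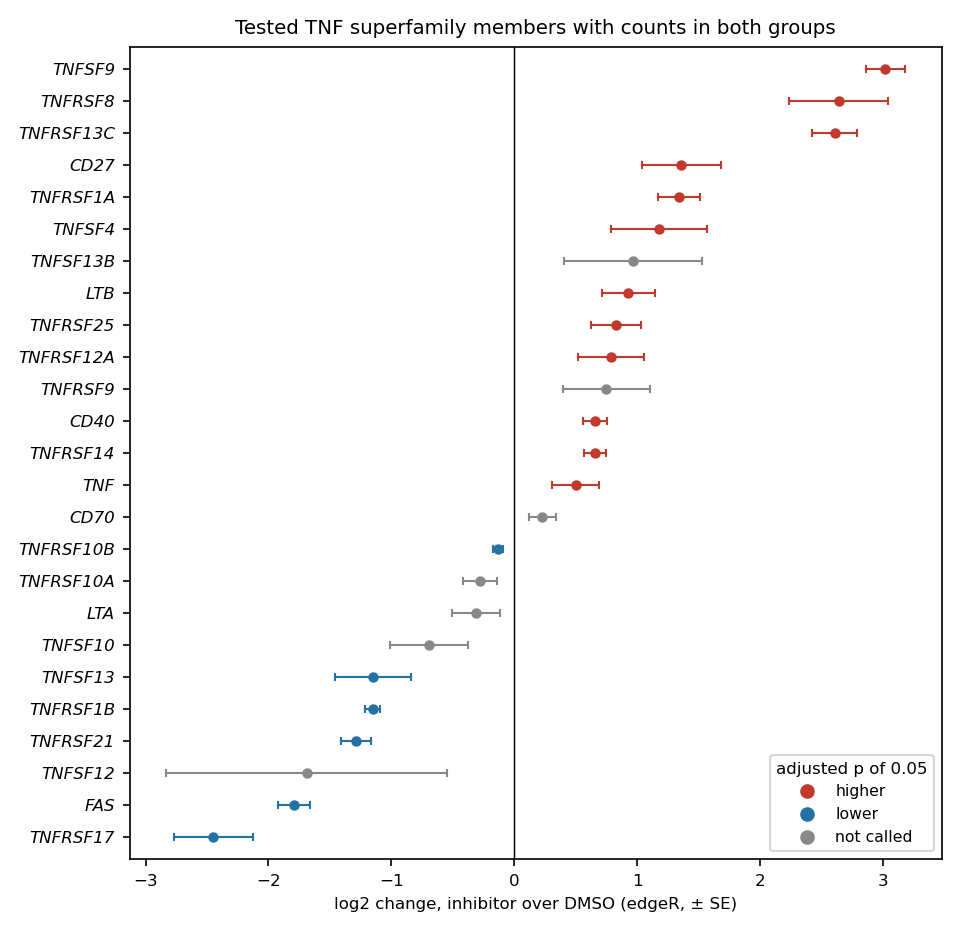
Log2 change, inhibitor over DMSO, of the 25 tested members with counts in both groups, from edgeR with its SE as bars; red members were higher, blue ones lower and grey ones not called at an adjusted p of 0.05. TNFSF9 (3.02) and TNFRSF17 (-2.45) lie at the ends.

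Among receptors for the survival ligands BAFF (TNFSF13B) and APRIL (TNFSF13), the balance of 2 receptors turned over. TNFRSF13C (BAFF receptor, ENSG00000159958, chromosome 22, 41922032 to 41926806), which sustains mature B cells, had 2.94, 3.83 and 3.23 FPKM with the inhibitor, against 0.471, 0.484 and 0.665 FPKM with DMSO. It rose by 2.61 on the log2 scale (SE 0.183, edgeR adjusted p = 1.47e-06). TNFRSF17 (BCMA, ENSG00000048462, chromosome 16, 11965210 to 11968068), a receptor of plasma cells and their precursors, had 0.744, 0.358 and 0.393 FPKM with the inhibitor, against 2.61, 3.1 and 2.58 FPKM with DMSO. It fell by 2.45 on the log2 scale (SE 0.322, edgeR adjusted p = 0.000101), on 23 to 47 counts per inhibitor library and 165 to 253 per DMSO library. The FPKM ratio of TNFRSF13C to TNFRSF17 was 3.95, 10.7 and 8.22 with the inhibitor and 0.18, 0.156 and 0.258 with DMSO (two-sided exact permutation p = 0.1, the lowest possible). TNFRSF17 was thus the lower of the pair in each inhibitor library and the higher in each DMSO library. The p-value of the ratio follows from the opposite, non-overlapping changes of both receptors and adds no support. TNFRSF13B (TACI), the third receptor of these ligands, had 0 to 8 counts per inhibitor library and 0 with DMSO. Of the plasma cell markers XBP1 fell (log2 change -0.76), PRDM1 rose (0.79), SDC1 rose (0.675 ± 0.124 FPKM with the inhibitor, 0 counts with DMSO), and IRF4 was not called. With 0 DMSO counts, the direction of SDC1 was fixed by the filter.

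The ligands of these receptors were low. TNFSF13 (chromosome 17, 7558292 to 7561608) had 129, 91 and 79 counts with the inhibitor, against 144, 289 and 351 counts with DMSO, and was called lower (log2 change -1.15, SE 0.309, edgeR adjusted p = 0.00857). With inhibitor replicate 1 alone it was not called (-0.78, adjusted p = 0.205). The low DMSO library 1 is also the only library in which the read-through gene TNFSF12-TNFSF13 had counts (149). Whether reads were assigned differently there was not tested. Summed over TNFSF12, TNFSF13 and the read-through gene, the locus had 129, 103 and 79 counts with the inhibitor and 306, 298 and 374 with DMSO, and the groups did not overlap. TNFSF13B had 0.108, 0.514 and 0.238 FPKM with the inhibitor and 0.0845, 0.13 and 0.211 FPKM with DMSO. Its groups overlapped and it was not called (edgeR log2 change 0.97, SE 0.561, adjusted p = 0.158). The value depended on single libraries: it was called without inhibitor replicate 1 (1.35, edgeR adjusted p = 0.0475), and was 0.25 (adjusted p = 0.716) without inhibitor replicate 2, the highest library. TNFSF12 (TWEAK) had 0 to 12 counts per inhibitor library and 9 to 23 per DMSO library and was not called (adjusted p = 0.221), but was without inhibitor replicate 2 (adjusted p = 0.00563), where its inhibitor counts are 0. Its receptor TNFRSF12A had 1.3, 2.05 and 1.55 FPKM with the inhibitor, against 1.17, 0.69 and 0.956 FPKM with DMSO. The groups did not overlap (log2 change 0.79, SE 0.267, edgeR adjusted p = 0.0259), and the call was lost without DMSO replicate 2 (adjusted p = 0.0793) or 3 (0.0502), or inhibitor replicate 2 (0.104) or 3 (0.0521).

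Of 9 tested costimulatory members 7 rose, 2 were not called and none fell, where 38.1% of all tested genes were higher. The direction of 2 of the 7 (TNFRSF4 and TNFRSF18, with 0 DMSO counts) was fixed by the filter, and of the 7 with counts in both groups 5 rose, where 32.2% of tested genes with DMSO counts did. TNFSF9 (ENSG00000125657, chromosome 19, 6531026 to 6535924), which stimulates T cells through TNFRSF9, had 12, 9.92 and 10.5 FPKM with the inhibitor, against 1.25, 1.16 and 1.56 FPKM with DMSO. All inhibitor libraries lay far above the DMSO libraries, an 8.1-fold rise and the largest among members with counts in both groups (log2 change 3.02, SE 0.161, edgeR adjusted p = 2.64e-07). Its receptor TNFRSF9 stayed low, at 35 to 53 counts per inhibitor library and 24 to 36 per DMSO library. TNFRSF9 was not called (edgeR log2 change 0.75, SE 0.353, adjusted p = 0.0902), except under upper-quartile scaling (0.92, adjusted p = 0.0436). CD70 (chromosome 19, 6583183 to 6591150), the ligand of CD27, lies next to TNFSF9 and had 7.15, 7.25 and 7.73 FPKM with the inhibitor and 6.62, 5.84 and 6.33 FPKM with DMSO. It was not called (edgeR log2 change 0.23, SE 0.11, adjusted p = 0.0929), although limma on log2(FPKM + 0.5) called it (0.22, adjusted p = 0.014). So did edgeR under upper-quartile scaling (0.40, adjusted p = 0.00933) and with a filter of at least 1 FPKM in at least 3 libraries (0.33, adjusted p = 0.0222). The FPKM ratio of TNFSF9 to CD70 was 1.47 ± 0.183 with the inhibitor and 0.211 ± 0.0305 with DMSO (SD, n = 3 each; two-sided exact permutation p = 0.1, the lowest value 3 against 3 can give), so TNFSF9 was the higher of these neighbours only in the inhibitor libraries.

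CD27 (chromosome 12, 6444955 to 6451718), a marker of memory B cells, had 2.25, 1.19 and 2.03 FPKM with the inhibitor, against 0.943, 0.602 and 0.593 FPKM with DMSO. It rose by 1.36 on the log2 scale (SE 0.321, edgeR adjusted p = 0.00416), with inhibitor library 2 the lowest of its group and still above every DMSO library. Of its overlapping neighbours, CD27-AS1 on the opposite strand was not called (log2 change -0.02) and TAPBPL fell by 0.81. How reads were shared among these genes was not tested. CD40 (chromosome 20, 46118271 to 46129858), through which T cells help B cells, had 4.37, 4.55 and 3.89 FPKM with the inhibitor, against 2.7, 2.89 and 2.43 FPKM with DMSO. It rose by 0.66 on the log2 scale (SE 0.0975, edgeR adjusted p = 0.00021). CD40LG, its ligand on T cells, had 4 counts in 1 inhibitor library and 0 elsewhere.

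TNFRSF4 and TNFRSF18 (OX40 and GITR), receptors best known on activated T cells, appeared together at low levels. TNFRSF18 (ENSG00000186891, chromosome 1, 1203508 to 1206592) had 36, 31 and 23 counts with the inhibitor and 0 with DMSO, at least 8.7-fold higher (edgeR adjusted p = 0.000185). TNFRSF4 (ENSG00000186827, 1211326 to 1214153), 4733 bases away, had 42, 33 and 46 counts with the inhibitor and 0 with DMSO, at least 11.7-fold higher (edgeR adjusted p = 9.26e-05). Both stayed under 0.5 FPKM, and with counts divided by 4 both had too few to be tested. Among T-cell genes, CD8A was called higher, with 0.0601 ± 0.0268 FPKM with the inhibitor and 0 counts with DMSO. The direction of CD8A was thus fixed by the filter. CD4 was called higher too, at 0.306 ± 0.0747 FPKM with the inhibitor and 0.00952 ± 0.0165 FPKM with DMSO. CD3E had too few counts to be tested, at 0.168 ± 0.136 FPKM with the inhibitor and 0 counts with DMSO. Of the ligands, TNFSF4 (OX40 ligand) had 0.363, 0.601 and 0.555 FPKM with the inhibitor, against 0.26, 0.302 and 0.105 FPKM with DMSO. It was called higher (log2 change 1.18, SE 0.391, edgeR adjusted p = 0.0232), but not without inhibitor replicate 2 (adjusted p = 0.0772) or 3 (0.0727). TNFSF18 had 0 or 4 counts in every library. TNFRSF8 (CD30, chromosome 1, 12063303 to 12144207), a lymphoma marker on activated B and T cells, had 0.39, 0.362 and 0.399 FPKM with the inhibitor, against 0.0684, 0.0813 and 0.0291 FPKM with DMSO. It rose by 2.64 on the log2 scale (SE 0.401, edgeR adjusted p = 0.000264), with 85 to 93 counts per inhibitor library and 8 to 25 per DMSO library.

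**Figure D3:**
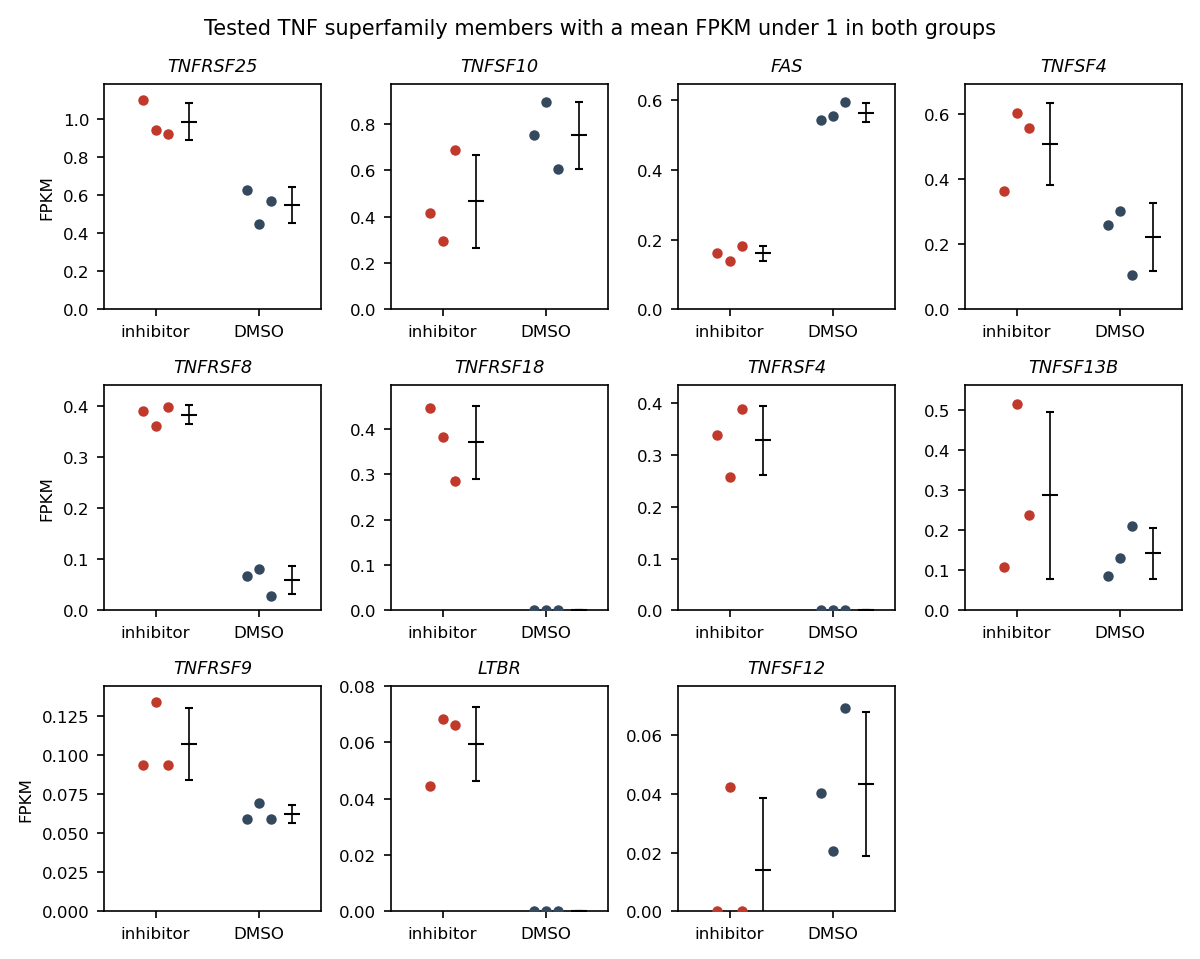
FPKM of the 11 tested members whose mean stayed under 1 FPKM in both groups, each dot 1 library and each bar the mean ± SD (n = 3), inhibitor left and DMSO right, on linear axes from 0. TNFRSF18, TNFRSF4 and LTBR sit at 0 in all 3 DMSO libraries, and FAS lies lower with the inhibitor.

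The start windows of TNFSF9 and TNFRSF18 are shown because these members rose and were low or at 0 with DMSO, and are written as above, with each CG in capitals. The TNFSF9 window is chr19:6530776-6531075 on the plus strand, and that of TNFRSF18 is chr1:1206543-1206842 on the minus strand.
TNFSF9: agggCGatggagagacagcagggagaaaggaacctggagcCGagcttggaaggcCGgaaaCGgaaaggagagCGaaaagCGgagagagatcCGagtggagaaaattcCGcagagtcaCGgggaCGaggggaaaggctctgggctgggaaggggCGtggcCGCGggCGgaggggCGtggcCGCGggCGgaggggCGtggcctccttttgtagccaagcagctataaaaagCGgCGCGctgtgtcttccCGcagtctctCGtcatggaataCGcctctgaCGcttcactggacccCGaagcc
TNFRSF18: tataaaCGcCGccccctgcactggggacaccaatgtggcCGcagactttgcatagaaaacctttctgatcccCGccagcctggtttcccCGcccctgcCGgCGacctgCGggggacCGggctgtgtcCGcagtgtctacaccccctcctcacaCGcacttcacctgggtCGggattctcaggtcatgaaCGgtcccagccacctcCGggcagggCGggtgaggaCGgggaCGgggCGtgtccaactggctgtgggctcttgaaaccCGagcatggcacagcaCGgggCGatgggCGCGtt
They hold 27 and 23 CG. Other members meet the same description: TNFRSF8, TNFRSF25 and TNFRSF1A also rose from a mean under 1 FPKM with DMSO. Their windows hold 11, 31 and 4 CG. RefSeq windows were found for 25 members, and for 18 of these a RefSeq start lay within 100 bases of the deposited one. The search was for the letters CG, which read the same on both strands and cannot overlap. All 18 windows held at least 1 CG, as did 96.0% of 35116 windows of all genes, whose median was 14 CG and whose middle range was 4 to 28. The 7 members that rose had 2 (LTB) to 31 (TNFRSF25) CG, with a median of 11, and the 3 that fell had 9 (TNFSF13) to 27 (TNFRSF1B), with a median of 23. The 7 include TNFRSF18, whose direction was fixed by the filter. The ranges of the 2 directions overlapped, and methylation was not analysed here.

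Some members that neighbour each other on a chromosome differed. TNFRSF1B fell while TNFRSF8, 22783 bases away on chromosome 1, rose. On chromosome 8, TNFRSF10D lay 66556 bases from TNFRSF10B and 26424 bases from TNFRSF10A, and was the member of the 3 that rose. On chromosome 19, TNFSF9 rose, CD70 was not called in the main test and TNFSF14 had too few counts. TNFRSF1A, LTBR and CD27 on chromosome 12 all rose, and TNFRSF4 and TNFRSF18 did as well. As stated above, the filter fixed the direction of TNFRSF10D, LTBR, TNFRSF4 and TNFRSF18. Whether neighbours agree more or less than other genes was not tested.

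The remaining members were at or near 0. TNFRSF11A (RANK) had 3 to 11 counts per inhibitor library and 0 with DMSO, TNFRSF19 had 4 counts in 1 inhibitor library, and the decoy TNFRSF6B had 2 to 14 counts with the inhibitor and 0 to 5 with DMSO. TNFRSF6B lies within the read-through gene RTEL1-TNFRSF6B, which rose by 1.03 on the log2 scale (edgeR adjusted p = 0.000116), and the authors' counting may split reads between them. In all, 8 members were not tested for lack of counts, and 18 of the 37 overlap another gene of the table, 9 of them on the same strand.

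Downstream of the receptors, 36 genes for adaptors, ubiquitin ligases, caspases and NF-kappaB were examined, and more were lower than higher. Of these, 18 were lower and 9 higher with the inhibitor, against 27.3% and 38.1% of all tested genes, and the median log2 change was -0.21. Under upper-quartile scaling, which moved the median of all genes to 0.31, the split was 12 lower and 12 higher. BIRC3, a ubiquitin ligase of the TNF receptor complexes and an NF-kappaB target, had 2.5, 2.53 and 3.05 FPKM with the inhibitor, against 12.6, 12.6 and 12.7 FPKM with DMSO (log2 change -2.23, SE 0.0718, edgeR adjusted p = 1.87e-08). RELB, the non-canonical NF-kappaB subunit, had 16.0, 15.5 and 13.4 FPKM with the inhibitor and 39.1, 37.1 and 39.2 FPKM with DMSO. TRAF2, the adaptor that most of these receptors use, had 9.81, 8.38 and 8.37 FPKM with the inhibitor and 22.1, 21.6 and 21.8 FPKM with DMSO. FADD, the adaptor of the death receptors, had 11.3, 11 and 10.9 FPKM with the inhibitor and 24.3, 21.7 and 24.8 FPKM with DMSO. None of these 4 genes overlapped between groups, and the log2 changes were -1.37 for RELB, -1.31 for TRAF2 and -1.10 for FADD (edgeR adjusted p = 2.75e-07, 3.77e-07 and 9.08e-07).

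Of the signalling genes that rose, the 4 with the largest changes were RIPK3, TRADD, RBCK1 and CASP10. RIPK3, the kinase of necroptosis, had 0.646, 0.762 and 0.739 FPKM with the inhibitor, against 0.0199, 0.038 and 0 FPKM with DMSO, where it had 14 counts in all (edgeR adjusted p = 5.56e-05). Its substrate MLKL was not called (log2 change -0.25, edgeR adjusted p = 0.303). TRADD, the adaptor of TNFRSF1A, had 5.01, 4.96 and 4.72 FPKM with the inhibitor and 2.98, 2.39 and 1.75 FPKM with DMSO, a log2 change of 1.04 (edgeR adjusted p = 0.000836). CASP10 had 1.22, 1.04 and 1.08 FPKM with the inhibitor and 0.525, 0.587 and 0.55 FPKM with DMSO (edgeR adjusted p = 0.000151), and CASP8, the main initiator caspase of these receptors, was not called (0.16, adjusted p = 0.0676). RBCK1, a subunit of the linear ubiquitin ligase, had 19.2, 20.7 and 20.3 FPKM with the inhibitor and 9.92, 9.44 and 9.99 FPKM with DMSO, a log2 change of 1.03 (edgeR adjusted p = 6.32e-08), while its partner SHARPIN was not called (-0.07). MLKL, CASP8 and SHARPIN were picked for mention after their values were seen.

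Of the proteases that cut ligands and receptors 3 of 3 were called higher, where 38.1% of all tested genes were, and 2 of the 3 changes were small. FURIN, which processes APRIL and BAFF, had 4.5, 4.59 and 4.38 FPKM with the inhibitor, against 1.4, 1.48 and 1.51 FPKM with DMSO (log2 change 1.61, SE 0.0911, edgeR adjusted p = 3.78e-07). ADAM10 rose by 0.25 and ADAM17, the sheddase of TNF, by 0.20 (edgeR adjusted p = 0.00255 and 0.00916). Of 4 family members whose names fall outside the rule, RELT rose by 0.17 (adjusted p = 0.0385) and averaged 4.24 ± 0.059 FPKM with the inhibitor and 3.75 ± 0.0557 FPKM with DMSO. NGFR rose as well and averaged 0.138 ± 0.0304 FPKM with the inhibitor and 0.0145 ± 0.014 FPKM with DMSO, on 13 DMSO counts (adjusted p = 0.00699), and EDA and EDAR had too few counts to be tested.

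**Figure D4:**
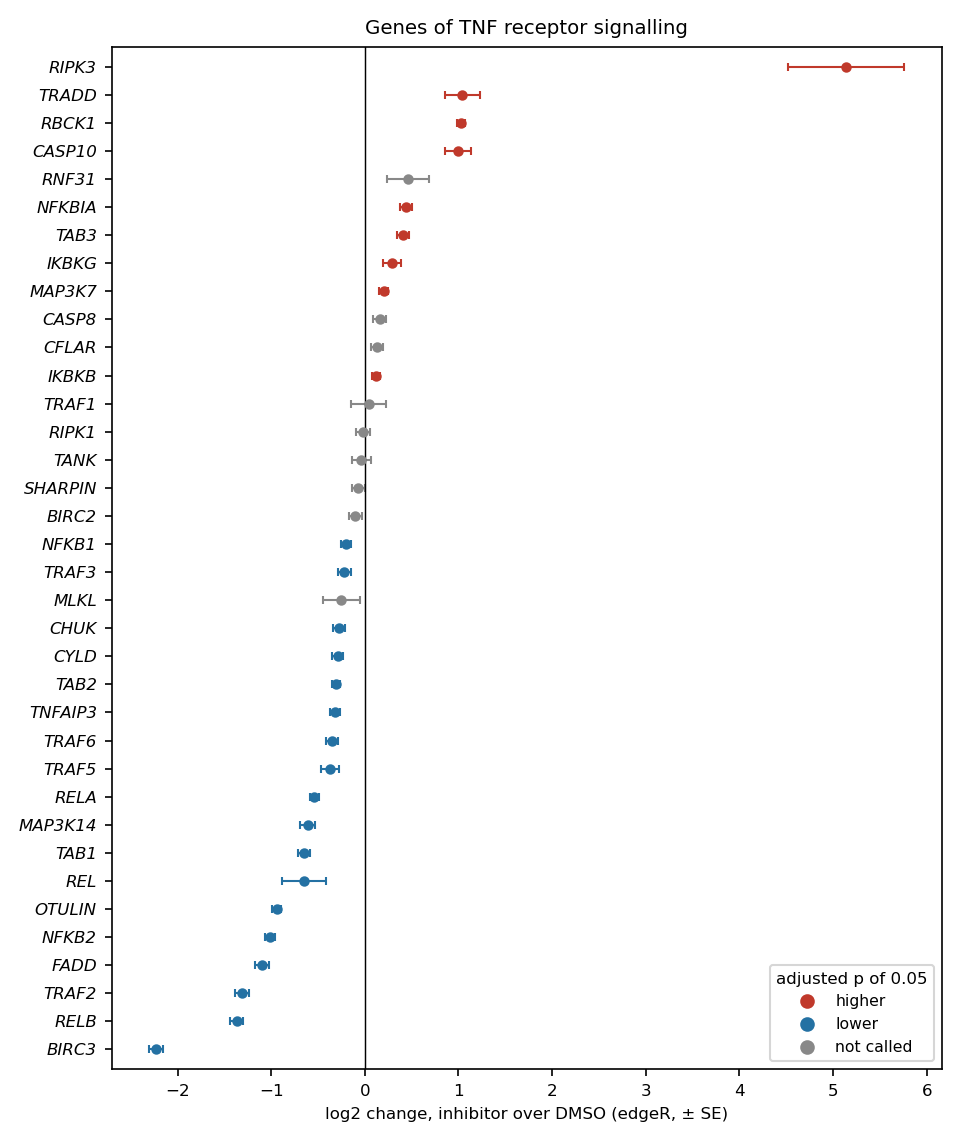
Log2 change, inhibitor over DMSO, of 36 genes of TNF receptor signalling, from edgeR with its SE as bars; red genes were higher, blue ones lower and grey ones not called at an adjusted p of 0.05. BIRC3 (-2.23) lies at the low end and RIPK3 (5.14, from 14 counts over the DMSO libraries) at the high end.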

How the data were processed

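Poly(A) RNA was sequenced, per the labels' protocols, with the second cDNA strand removed, in 6 libraries grouped by title. The submitters' processing notes name, with no role, DESeq2 and edgeR along with HISAT2 2.2.1, StringTie 2.1.6 and cutadapt 1.9, and the mouse build mm10, but all 37 members matched GENCODE release 29 and overlapped its GRCh38 position. Per the file headers, the authors' deposited values are FPKM and estimated counts, per gene and library. Neither their exact scaling nor the use of strand in counting is stated in those sources. Counts were whole numbers that peaked at multiples of 4 (1319.8 genes per library at a count of 4, 725.8 at 3 and 474.5 at 5), so 4 counts were taken as about 1 read pair.

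Counts were tested with edgeR 4.0.16 (R 4.3.3, filterByExpr, TMM factors 0.9805 to 1.021, quasi-likelihood) on 20783 genes, called at an adjusted p of 0.05. A run on simulated data came first, with few changed genes split evenly between directions. It does not cover the scaling of data in which 65.4% of tested genes are called. Standard errors are the log2 change divided by the square root of F. Alternatives used DESeq2 1.42.0 and limma 3.58.1. Folds against groups at 0 are lower bounds against 12 counts over the group (3 read pairs), which cover counting error only. Pairs of libraries within a group were not identical and varied by 3.3 to 6.83 times sampling. Libraries with the same number in both groups were not treated as pairs in the main test. Windows at gene starts came from RefSeq (GRCh38.p14). Members with a mean of at least 1 FPKM in a group are given per library, in FPKM or counts, and of the signalling genes the 4 largest called changes in each direction in log2(FPKM + 0.5). Members and lists were chosen with earlier results of these data known.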

Additional observations from a re-analysis of the deposited data

How the results depend on the processing

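Counts of members called ranged from 11 to 18 higher and 4 to 7 lower over the alternatives, against 16 and 6 of 29 tested. The number tested differed: 18 with the filter at 1 FPKM (11 higher, 4 lower), 21 with limma (12 and 7), 24 with counts divided by 4 (13 and 6) and 37 with no filter (16 and 6). Leaving out a library gave 13 to 16 higher and 6 lower. Signalling genes ranged from 7 to 12 higher and 12 to 18 lower, against 9 and 18, and leaving out a library gave 7 to 10 and 16 to 17. Of the single-member changes under these alternatives, 418 kept their direction and side of the threshold, 21 were no longer called, 12 became called and 2 turned direction. TNFRSF10B turned to 0.04 (upper-quartile scaling) and TNFSF13B to -0.40 (inhibitor replicate 1 alone), neither called, and the cause was not tested. The median log2 change over all tested genes was 0.31 under upper-quartile scaling, against 0.14. Libraries with the same number correlated at 0.0208, 0.13 and -0.0665 in their deviations from group means, and those with different numbers at -0.147 to 0.149. With 3 libraries per group the deviations constrain each other, so these values cannot exclude a shared origin of libraries with the same number. With the replicate block, 15 members were higher and 6 lower, and 9 and 18 signalling genes. TNFRSF12A was the member no longer called with the block (adjusted p = 0.0625). Depth limits LTBR, TNFRSF4, TNFRSF18, TNFRSF9 and TNFSF12, which had too few counts to be tested once counts were divided by 4.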
